A study of Mus musculus with 25 samples.

Results

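The chromatin of GFP+ retinal progenitor cells at embryonic day 12.5 (E12.5) and at embryonic day 14 (E14) was compared. The members are 4 ATAC libraries, 2 at E12.5 and 2 at E14, of 25 libraries in the series, of which 13 are ATAC and the others are RNA libraries. They were chosen by their labels: GFP+ ATAC columns of these 2 stages. All 4 come from mice of the CD1 strain, the labelled cell type is retinal progenitor cells (RPCs), and no treatment separates the groups. The labels give neither the reporter behind GFP nor the number of embryos in a library or their sex, and they do not say whether replicates came from separate litters. The p-values therefore measure the spread between these libraries, which may be technical. In ATAC, a transposase cuts accessible DNA and inserts sequencing adapters there, so a count is a read from open chromatin. The authors deposited whole-number counts in 200 bp windows around transcript starts and counts over the exons of each gene. Here 50 adjacent windows were summed into a 10 kb region around each start, and E14 was set against E12.5 in each region, in each gene's exons and in single windows.

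Retinal progenitors divide while they give rise to all neurons of the retina and to Müller glia in an order that is conserved between vertebrates. Retinal ganglion cells, horizontal cells, cones and early amacrine cells are born first, and rods, bipolar cells and Müller glia last. Progenitors are kept as such by homeobox and Sox factors of the eye field and by Notch signalling through the Hes repressors, while pulses of proneural basic helix-loop-helix (bHLH) factors such as Atoh7 and Neurog2 start neurogenesis. The interval studied here falls within the early phase, when ganglion cells are being produced.

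To show what kind of sequence lies at the starts that the results below turn on, 6 promoters are printed, each as the 250 bases before the RefSeq start in the direction of transcription (5′ to 3′, assembly GRCm38.p6). The first 3 belong to regions with more counts at E14: Six6 and Sox2, transcription factors of retinal progenitors, and Hoxa2, a hindbrain patterning gene. The other 3 belong to regions with fewer counts at E14: Npy2r and Tacr1, which encode neuropeptide receptors, and Chodl, which encodes a C-type lectin-like membrane protein. Capitals mark matches, on either strand, to 5 short motifs. The TATA box was searched as TATAAA. The CCAAT box, bound by the factor NF-Y, has its own letters as its name. The GC box, which Sp factors bind, was searched as GGGCGG. The E-box of the bHLH factors was searched as CAGCTG. The core of many homeobox sites was searched as TAATTA. No 2 matches overlap in these 6 promoters. The Six6 promoter is chr12:72939632-72939881 on the plus strand, Sox2 is chr3:34649745-34649994 on the plus strand, Hoxa2 is chr6:52164832-52165081 on the minus strand, Npy2r is chr3:82548086-82548335 on the minus strand, Tacr1 is chr6:82402225-82402474 on the plus strand and Chodl is chr16:78930698-78930947 on the plus strand.
Six6: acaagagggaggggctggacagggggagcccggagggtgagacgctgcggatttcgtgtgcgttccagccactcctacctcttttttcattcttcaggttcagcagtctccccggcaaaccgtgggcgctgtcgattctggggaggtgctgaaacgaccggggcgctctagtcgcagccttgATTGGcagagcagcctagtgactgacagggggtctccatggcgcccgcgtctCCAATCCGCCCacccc
Sox2: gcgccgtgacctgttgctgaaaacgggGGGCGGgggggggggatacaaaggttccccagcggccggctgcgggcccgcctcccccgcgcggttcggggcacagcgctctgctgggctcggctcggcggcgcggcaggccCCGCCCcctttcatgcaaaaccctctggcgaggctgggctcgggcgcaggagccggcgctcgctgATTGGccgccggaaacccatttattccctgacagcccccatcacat
Hoxa2: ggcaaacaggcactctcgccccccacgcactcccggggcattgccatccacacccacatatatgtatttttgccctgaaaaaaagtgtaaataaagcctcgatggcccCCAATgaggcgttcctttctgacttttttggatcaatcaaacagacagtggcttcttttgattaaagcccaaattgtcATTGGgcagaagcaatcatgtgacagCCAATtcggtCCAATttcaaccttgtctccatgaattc
Npy2r: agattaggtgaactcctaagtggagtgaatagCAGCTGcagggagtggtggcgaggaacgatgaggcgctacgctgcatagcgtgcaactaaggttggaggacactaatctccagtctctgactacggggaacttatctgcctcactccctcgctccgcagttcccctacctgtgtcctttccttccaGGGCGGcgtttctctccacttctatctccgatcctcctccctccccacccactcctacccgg
Tacr1: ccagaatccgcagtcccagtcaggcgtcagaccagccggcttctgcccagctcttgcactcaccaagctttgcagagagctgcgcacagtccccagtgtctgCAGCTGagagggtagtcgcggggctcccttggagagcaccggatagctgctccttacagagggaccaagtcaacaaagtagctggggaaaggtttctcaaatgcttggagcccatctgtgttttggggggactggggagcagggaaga
Chodl: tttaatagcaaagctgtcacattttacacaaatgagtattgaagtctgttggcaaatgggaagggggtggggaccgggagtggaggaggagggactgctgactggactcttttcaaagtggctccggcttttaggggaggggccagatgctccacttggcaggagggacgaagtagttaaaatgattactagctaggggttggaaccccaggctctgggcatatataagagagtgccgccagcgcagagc
The Sox2 and Six6 promoters hold 27 and 17 CpG dinucleotides and are 72% and 62.8% G+C. Npy2r has 12 CpG, Tacr1 7, Hoxa2 6 and Chodl 5, so on this measure the Hoxa2 promoter is closer to those of the regions that fell. Hoxa2 has 4 CCAAT boxes, Npy2r and Tacr1 have 1 CAGCTG each, and Chodl has none of the 5 motifs in this window.

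The libraries differed in depth and in how sharply counts were gathered at transcript starts. The regions held 35075845 and 27193828 counts at E12.5 and 67796600 and 84492228 at E14, with 11179094 to 94686369 over all 13 ATAC libraries. Start enrichment, which divides the average count of the central 400 bp by the average of the 6 outermost windows, was 19.9 and 18.5 at E12.5 and 24.85 and 25.4 at E14. The E14 values lay within the range of the 6 libraries from E16.5 to birth (P0), 23.6 to 28.5, and the E12.5 values below it. These values were not tested, since an exact permutation test of 2 libraries against 2 cannot pass 0.05. A fit that scaled each library at every level of abundance was used for this reason, and values are given as scaled CPM: counts divided by the library's fitted size at that abundance. Exons held 13.7% and 13.7% of the region total at E12.5 against 18.9% and 18.8% at E14, and 12.6% to 14.2% in the other 9 libraries. E14 thus stood apart from all other stages in this share, and its part in the results was not tested. Replicates correlated at 0.9961 (E12.5) and 0.9965 (E14) across regions in log2 CPM, but differed by more than counting noise, with a mean chi-square per region of 5.88 and 7.30. Xist, the RNA gene of X inactivation, had 6.70 and 6.91 CPM of the region total at E12.5 and 18.6 and 18.9 at E14. The Y-linked Ddx3y had 19.6 and 15.9 at E12.5 against 7.10 and 6.47 at E14, so stage and the sex composition of the embryos cannot be told apart.

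**Figure D1:**
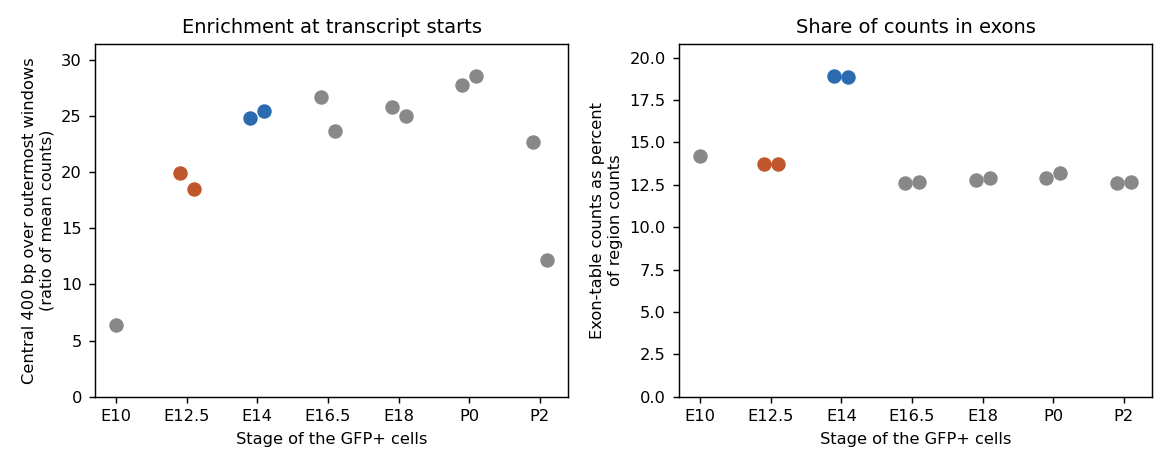
Start enrichment (left, ratio of mean counts) and exon counts as a percent of region counts (right) in each of the 13 ATAC libraries by stage, 1 point per library, E12.5 in orange and E14 in blue. Start enrichment is 18.5 and 19.9 at E12.5 and 24.85 and 25.4 at E14, and the exon share of 18.8% and 18.9% at E14 lies above that of all other libraries.

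Between E12.5 and E14, 5027 of 27854 regions had more counts (18%) and 5268 had fewer (18.9%) at a Benjamini-Hochberg adjusted p of 0.05 in edgeR's quasi-likelihood test. Most changes were small. The median called gain was 0.36 on the log2 scale (1.28-fold), and the median called loss was a fall by 0.45 (1.37-fold). Beyond 1.5-fold lay 1145 gains and 1751 losses, and beyond 2-fold 196 and 329. The 2 E12.5 libraries did not overlap the 2 E14 libraries in 5027 of 5027 gains and 5260 of 5268 losses. A call nearly requires such separation, so these counts add no support to the calls. The share over all regions tested is not given. In a test against a minimum change of 1.5-fold, 144 regions were higher and 472 lower. With 1 region kept per gene, that of the start with the most counts, 18.1% of 24080 genes were higher and 18.7% lower, and these are the shares against which the lists below are read. The balance of gains and losses is set by the scaling. It was 6492 to 12291 with library size alone, 6524 to 12124 with factors from the central 400 bp and 15535 to 5605 with factors from the outermost windows, where the median of all regions moved by -0.15, -0.15 and 0.44. Without E12.5 replicate 2 the calls were 2825 and 3399, and without E14 replicate 2 they were 2842 and 3306, with the remaining library assumed to vary like those of the other stages. Because these are bulk libraries, fewer cells with an open site and less opening per cell cannot be told apart.

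Most genes of the retinal progenitor state had a higher region at E14. Of 14 core progenitor genes, 12 had a higher start region at E14 and 1 a lower one, with a median log2 change of 0.42 against 0.00 over all regions. Of 21 genes of the eye field and optic cup, which overlap the former list, 15 were higher and 2 lower, with a median of 0.39. Over the 10 settings compared, the 2 lists had at least 10 and 14 gains, and their medians relative to all regions stayed above 0.

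Otx2, a homeobox gene of photoreceptor and bipolar precursors and of the pigment epithelium, had 50.2 and 47.5 CPM at E12.5 and 81.0 and 80.6 at E14. Its region at chr14:49279784-49289783 (mm9, minus strand) rose by 0.73 ± 0.07 (log2, SE; 1.65-fold, adjusted p = 1.39e-10). The regions of all 3 annotated Otx2 starts rose, by 0.72, 0.73 and 0.86, but they overlap and share reads. Otx2 exon counts rose by 0.43 (adjusted p = 0.0322) and were not called without the abundance offset (0.28, adjusted p = 0.141). Six6, an eye field homeobox gene, went from 78.7 and 71.9 to 110 and 116 CPM (0.58 ± 0.07, adjusted p = 2.91e-09), and the 200 bp window just before its start rose by 0.63. Sox2, a factor of neural progenitors, went from 84.1 and 79.1 to 119 and 121 CPM (0.55 ± 0.06, adjusted p = 3.07e-09). In each of these genes the E12.5 libraries lay below both E14 libraries. The 1 loss in the core list was Fabp7, a fatty acid-binding protein gene of progenitors and glia, with 18.9 and 21.9 CPM at E12.5 and 11.8 and 9.21 at E14 (-0.96, adjusted p = 9.33e-08). Six3, Rax and Lhx2, eye field homeobox genes needed for eye formation, rose by 0.44, 0.42 and 0.42. The regions of all 4 Pax6 starts rose, by 0.35 to 0.48, but neighbouring ones overlap and share reads. The 2 losses among the eye field genes were Dach2, a cofactor in the eye field network (58.97 and 63.0 to 44.99 and 38.4 CPM, -0.55), and Mitf, the regulator of pigment cells (46.9 and 50.4 to 42.1 and 43.1 CPM, -0.19, adjusted p = 0.05).

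**Figure D2:**
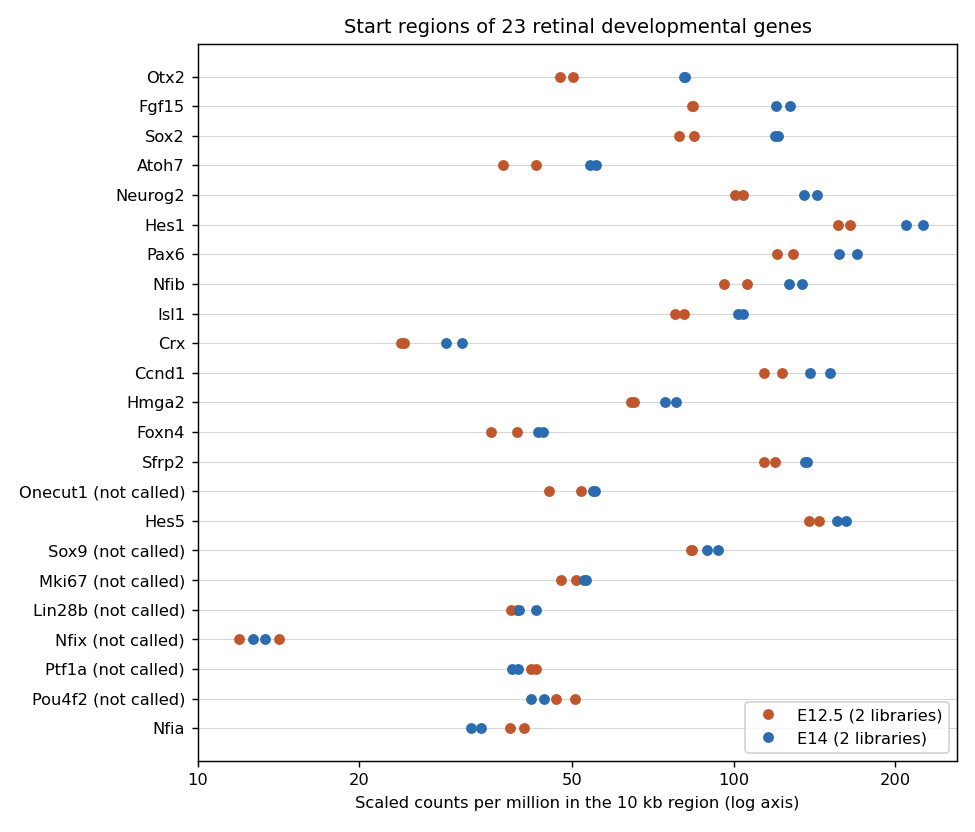
Scaled CPM (x axis, log) of the 10 kb start region of 23 retinal developmental genes in each E12.5 (orange) and E14 (blue) library, ordered by fitted change from gains at the top to losses at the bottom. Otx2 has the widest gap between the stages, 15 genes are higher, Nfia is lower and 7 marked as not called did not pass.

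Of 23 genes of retinal development, 15 were higher, 1 was lower and 7 did not pass, against 18.1% and 18.7% of all genes. Their membership was chosen with earlier results of these data known. Among the proneural factors, Neurog2 had 104 and 100.3 CPM at E12.5 and 143 and 135 at E14 (0.44 ± 0.06, adjusted p = 9.81e-08). Atoh7, the bHLH factor required for ganglion cells, had 42.7 and 37.2 CPM and then 53.9 and 55.3 (0.45 ± 0.08, adjusted p = 3.02e-05).

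The genes of retinal neuron classes did not move as one. Isl1, a factor of ganglion, amacrine and bipolar cells, had 80.8 and 77.6 CPM and then 104 and 102 (0.37 ± 0.07, adjusted p = 4.1e-05). Pou4f2, the ganglion cell factor downstream of Atoh7, had 50.5 and 46.6 CPM and then 44.3 and 41.9, and did not pass (-0.17, adjusted p = 0.0733). Its exon counts rose by 0.28, so region and exons had opposite signs. In the central 2 kb Pou4f2 was called lower (-0.34, adjusted p = 0.00867), as it was with the further offset for G+C content (-0.23, adjusted p = 0.0151). Foxn4, which acts in progenitors of horizontal and amacrine cells, had 35.2 and 39.3 CPM and then 43.2 and 44.1 (0.23 ± 0.08, adjusted p = 0.0224), a call that was lost without E12.5 replicate 1 (adjusted p = 0.297), E14 replicate 1 (0.0633) or E14 replicate 2 (0.131). Ptf1a, which acts downstream of it in the same fates, had 42.7 and 41.8 CPM and then 39.5 and 38.6 (-0.11, adjusted p = 0.223). In the central 2 kb Ptf1a was called lower (-0.32, adjusted p = 0.024). Onecut1, a horizontal and ganglion cell factor, had 51.8 and 45.3 and then 55.2 and 54.7 (0.17, adjusted p = 0.0835). Crx, the photoreceptor homeobox gene, had 23.9 and 24.2 CPM and then 31.1 and 29.0 (0.32 ± 0.09, adjusted p = 0.00361), and reached 50.4 and 55.7 at P0. Without E14 replicate 1 the adjusted p of Crx was 0.0589.

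Over the whole lists, 12 of 20 neurogenic factors were higher and 3 lower (median 0.20). Insm1, a zinc finger factor of newborn neurons, rose from 146 and 142 to 199.9 and 199 CPM (0.47). Neurod6 fell from 26.3 and 29.7 to 14.7 and 12.6 CPM (-1.04), and Neurod4 (-0.47) and Gadd45a (-0.17) fell as well. Of 20 horizontal and amacrine genes 10 were higher and 2 lower, with Dlx2 at 0.51 and the calcium-binding protein gene Calb1 at -0.52. Of 18 ganglion cell genes 8 were higher and 3 lower, and the 3 losses were Stmn2 (-0.87), Elavl4 (-0.64) and Sncg (-0.63), which are expressed in differentiated neurons. Photoreceptor genes split evenly, with 5 of 20 higher and 5 lower and a median of 0.00. Among them the cone genes Rxrg and Thrb fell by 0.71 and 0.40 while Otx2 and Crx rose. Without the abundance offset the photoreceptor median was -0.43.

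Of 19 pan-neuronal genes, 1 was higher and 6 lower in their regions, with a median of -0.06, and in exon counts 3 were higher and 11 lower, with a median of -0.28. The regions that fell included those of the synaptic and cytoskeletal genes Gria2 (64.7 and 64.5 to 38.9 and 34.8 CPM, -0.81), Map2 (-0.63), Syt1 (-0.56), Snap25 (-0.33) and Dpysl3 (-0.26). Tubb3, the neuronal tubulin, had 59.3 and 52.8 CPM and then 62.3 and 62.9 (adjusted p = 0.112).

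Genes linked to the change of progenitor competence with age were listed as early and late, and the difference between the lists was not tested. Of 14 early progenitor genes 10 were higher and 1 lower (median 0.24), and in exon counts 7 were higher and 1 lower (median 0.23). Fgf15, a growth factor secreted by early progenitors, had 83.9 and 83.7 CPM at E12.5 and 119.7 and 127 at E14 (0.56 ± 0.07, adjusted p = 1.3e-08). Sfrp2, a secreted Wnt inhibitor, had 119.5 and 114 and then 136 and 137 (0.23 ± 0.06, adjusted p = 0.00354), and 91.7 to 114 CPM later. Hmga2, a chromatin protein gene of early progenitors, had 65.1 and 64.3 and then 74.5 and 78.0 CPM (0.24 ± 0.07, adjusted p = 0.00504). Without E12.5 replicate 2 the adjusted p was 0.0908 for Sfrp2 and 0.0537 for Hmga2, and without E14 replicate 2 it was 0.0863 for Hmga2. The RNA-binding protein genes Igf2bp2 (0.39) and Igf2bp3 (0.29) rose, and Lin28b, the let-7 inhibitor, had 38.4 and 39.4 and then 42.8 and 39.8 CPM (adjusted p = 0.474). Ikzf1, the zinc finger factor tied to early competence, fell from 64.6 and 69.9 to 50 and 44.7 CPM (-0.51).

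Of 14 late progenitor and glial genes 2 were higher and 4 lower, against 18.1% and 18.7% of all genes. The median of -0.05 changed sign without the abundance offset (0.14, with 6 higher and 2 lower). In exon counts 4 of the late genes were higher and 3 lower, with a median of 0.18, and without the offset 10 were higher in each list (medians 0.46 for early and 0.43 for late genes). Nfib, a nuclear factor I gene, had 106 and 95.8 CPM and then 134 and 127 (0.37 ± 0.06, adjusted p = 1.24e-05). Zfp36l1, an RNA-binding protein gene, rose from 80.3 and 79.8 to 115 and 136 CPM (0.65). Nfia had 38.3 and 40.6 CPM and then 33.7 and 32.4 at its start with the most counts (-0.25 ± 0.08, adjusted p = 0.0109), and 52.7 and 55.0 and then 67.3 and 68.3 at a second start (0.33, adjusted p = 0.00047). The loss at the first start was not called without E12.5 replicate 2 (adjusted p = 0.119) or E14 replicate 2 (0.0937) and had the opposite sign without the offset (0.03). That first start then stood at 94.6 to 124 CPM from E16.5 to P0. Nfix, with 11.9 and 14.2 and then 12.7 and 13.4 CPM, overlapped between the stages and was at 23.7 to 57.9 later. Car2 and Crym, genes of late progenitors and glia, fell by 0.70 and 0.85, as did Rlbp1, of Müller glia, by 0.29.

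In the pathways that act on progenitors, Notch genes were split, with 7 of 20 higher and 3 lower (median 0.06). Hes1, the Notch effector, had 165 and 157 CPM and then 209.8 and 226 (0.44 ± 0.06, adjusted p = 7.25e-08), and the receptor Notch1 rose by 0.45. Hes5 had 144 and 138 and then 156 and 162 (0.17 ± 0.06, adjusted p = 0.0342). That call was lost without either E12.5 library (adjusted p = 0.0821 and 0.296) or without E14 replicate 2 (0.179), and with the central 2 kb removed the change was -0.21. Hey2, Hey1 and the ligand Jag2 fell by 0.25, 0.15 and 0.23. The split of this list depends on the scaling: without the abundance offset 16 were higher and none lower (median 0.29), in DESeq2 17 and none, and with factors from the outermost windows 20 and none. In the Hedgehog pathway 9 of 15 genes were higher and 2 lower (median 0.19). The coreceptor Cdon (0.54), the signal transducer Smo (0.36) and the factors Gli2 (0.32) and Gli1 (0.26) were among the gains, while the losses were the antagonist Hhip (-0.29) and Boc, a second coreceptor (-0.22). Both losses rest on the abundance offset, as no Hedgehog region was called lower without it, with the other scaling factors or in DESeq2. In exon counts 5 Hedgehog genes were higher and 4 lower (median 0.05), and without the offset 10 and 1 (median 0.35). The FGF pathway had 5 of 17 higher, with Fgf15, the feedback phosphatase Dusp6 (0.33) and the ligand Fgf9 (0.36) first, and 2 lower, the receptor Fgfr2 (-0.29) and the factor Etv1 (-0.16). Without the offset 12 FGF genes were higher and none lower (median 0.36 against 0.10), so these losses were not called there either.

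Wnt genes were mixed, with 9 of 28 higher and 6 lower (median 0.10). The secreted activators Rspo3 (78.7 and 91.0 to 52.8 and 48.3 CPM, -0.75) and Rspo2 (-0.87), the ligand Wnt2b (-0.41), the inhibitors Dkk2 (-0.85) and Dkk1 (-0.30) and the receptor Fzd1 (-0.24) made up all 6 losses. The receptors Fzd7 (0.29), Fzd3 (0.29) and Fzd5 (0.23) and the nuclear factor Tcf7l1 (0.38) were among the gains. Without the offset 16 Wnt genes were higher and 6 lower (median 0.23). Of 17 retinoic acid genes 2 were higher and 7 lower (median -0.14), the losses including the receptors Rxrg (-0.71), Rarb (-0.42) and Rxra (-0.37) and the synthetic enzyme Aldh1a3 (-0.26). The direction of this list depends on the scaling: without the abundance offset 6 were higher and 1 lower, with a median of 0.09. Of 20 genes that pattern the retinal axes 11 were higher and 3 lower (median 0.18), with gains in the nuclear receptors Nr2f1 (0.43) and Nr2f2 (0.45), dorsal Tbx3 (0.46), ventral Vax2 (0.40) and temporal Foxd1 (0.43), and a loss in Bmp2 (-0.48).

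Cell cycle genes leaned towards gains. Of 24 G2 and M phase genes 14 were higher and 2 lower (median 0.26), of 24 S phase genes 10 and 1 (0.15), and of 15 cyclins and inhibitors 8 and 0 (0.23). Kif20a, a mitotic kinesin, went from 45.6 and 39.5 to 65.0 and 69.4 CPM (0.66), and Ccnb2, a mitotic cyclin, from 16.1 and 16.7 to 25.9 and 27.2 (0.70). Prim1, the primase subunit, went from 8.12 and 8.24 to 15.4 and 16.9 CPM (0.98). Ccnd1, the D cyclin of retinal progenitors, had 114 and 123 CPM and then 139 and 151 (0.30 ± 0.07, adjusted p = 0.000549). Mki67, the proliferation marker, had 50.8 and 47.6 and then 53.1 and 52.6 (0.10, adjusted p = 0.282). A list of 16 housekeeping genes, kept as a reference, also had 7 higher and 0 lower, with a median of 0.16, so a share of gains of this size was also found for genes that every cell uses. Without the abundance offset 23 of the S phase genes (median 0.43), 21 of the G2 and M phase genes (0.53), 13 of the cyclins and inhibitors (0.39) and 14 of the housekeeping genes (0.41) were higher and none lower.

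**Figure D3:**
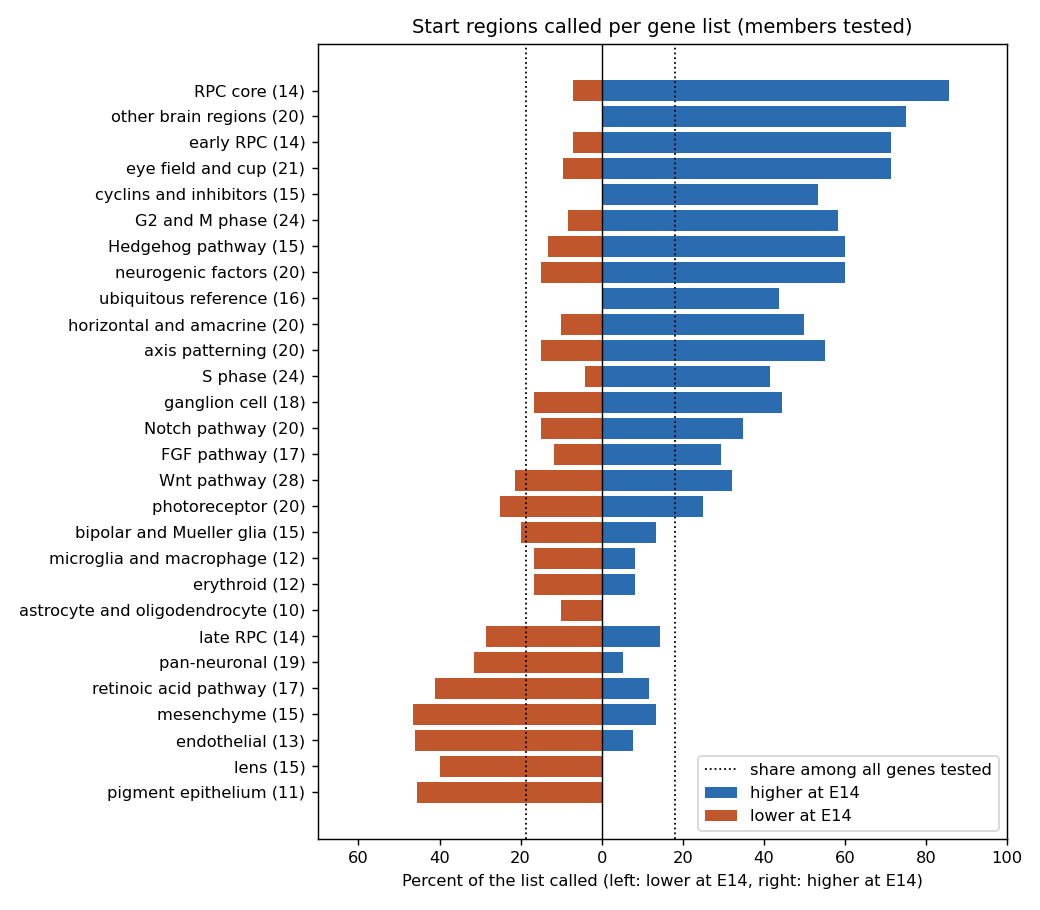
Percent of each list's tested start regions called higher (blue, to the right) or lower (orange, to the left) at E14, with the number of members tested in brackets and dotted lines at the shares over all genes (18.1% higher and 18.7% lower). The core progenitor list has 12 of 14 members higher, and the lens and pigment epithelium lists have none higher with the abundance offset used here (2 higher in each without it).

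With the abundance offset, the highest folds among regions of at least 20 mean CPM in the higher stage were not those of progenitor genes. Without it Otx2 rose by 1.01, above Hoxb2 (0.98) and below Hoxa2 (1.13). Hoxa2 had 9.31 and 10.9 CPM at E12.5 and 22.8 and 23.3 at E14 (1.20 ± 0.13, 2.29-fold, adjusted p = 6.07e-10). Hoxb2 had 10.3 and 9.16 and then 21.6 and 22.2 (1.17 ± 0.12, adjusted p = 1.49e-10), and Hoxd8 had 16.9 and 16.3 and then 30.4 and 34.3 (0.96 ± 0.09, adjusted p = 1.07e-10). The antisense Hoxaas2 region (1.22) overlaps that of Hoxa2. These genes pattern the hindbrain and trunk along the body axis. Among all 39 Hox genes, a list chosen after these values were seen, 38 regions were higher and none lower (median 0.66), with Hoxc9 at 0.25 and an adjusted p of 0.0804, and 39 of 39 were higher in exon counts (median 1.05). All 39 were below 1 FPKM in both E14 GFP+ RNA libraries. The list of genes of other brain regions, 4 of them Hox genes, had 15 of 20 higher and none lower (median 0.32). It included Lhx5 (0.82), Pax3 (0.55) and En1 (0.34), and 17 of the 20 were below 1 FPKM in both RNA libraries. Across the scalings compared, 27 to 39 Hox regions were called higher and none lower.

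Replication-dependent histone genes, which encode the histones made in S phase, were likewise higher. Hist1h2bb had 107 and 92.4 CPM at E12.5 and 199 and 197 at E14 (0.98 ± 0.06, adjusted p = 3.03e-15), and Hist1h3c, whose region overlaps it, had 90.4 and 77.6 and then 167 and 164 (0.98 ± 0.07). In a list made after these values were seen, 69 of 69 histone genes had a higher region (median 0.68) and 61 of 61 higher exon counts (median 0.80), but many regions within a cluster overlap and near-identical copies may share reads. The highest fold among the regions named by the rule belonged to Rn4.5s, a small repeated RNA gene (28.9 and 31.2 to 93.2 and 95.4 CPM, 1.65 ± 0.07). Its reads may also come from its copies.

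Some gains were followed by low levels at later stages. Slc51a, an organic solute transporter subunit, had 11.99 and 10.5 CPM and then 27.6 and 28.1 (1.31 ± 0.13, adjusted p = 7.04e-11), and 3.69 to 7.63 at later stages. Its central 2 kb changed by 0.32 (adjusted p = 0.415), so the gain lies away from the start. Fez1, a neuronal transport adaptor gene, had 12.5 and 12.3 CPM, then 25.6 and 25.4 (1.04 ± 0.13) and 3.47 to 8.13 later, with 0.60 and an adjusted p of 0.346 in the central 2 kb. Kcnj13, a potassium channel gene of the pigment epithelium, had 13.4 and 12.7 CPM and then 26.5 and 31.1 (1.14 ± 0.11), and 6.60 to 13 later. Without the abundance offset these gains were smaller but still called, at 0.82 for Slc51a, 0.55 for Fez1 and 0.86 for Kcnj13. Tmem132d (0.94) and Pes1, a ribosome biogenesis gene (0.93), completed the 12 gains named by the rule.

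**Figure D4:**
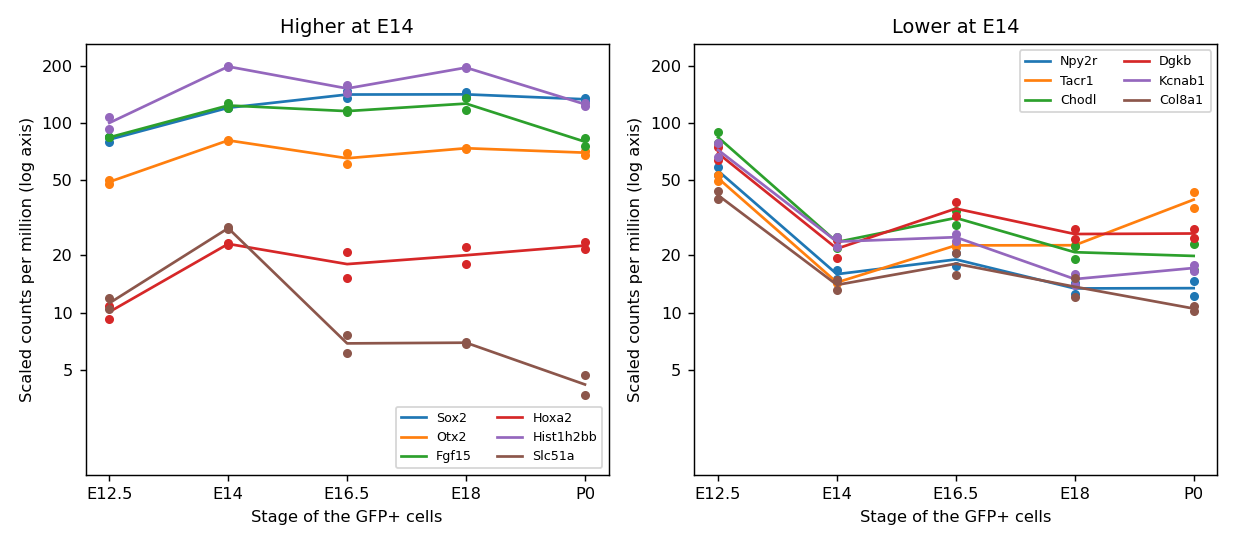
Scaled CPM (y axis, log) of 6 regions that were higher (left) and 6 that were lower (right) at E14, across the 5 stages from E12.5 to P0, with 1 point per library and lines through stage means. Sox2 is at 131 to 147 after E14, Slc51a at 3.69 to 7.63, and Tacr1 is at 35.7 and 43.0 at P0.

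The 12 losses with the highest folds included genes of neurotransmitter or neuropeptide receptors. This class was named after the values were seen, and its share over all regions was not counted. Tacr1, the substance P receptor, had 49.4 and 52.8 CPM at E12.5 and 14.4 and 14.4 at E14 (-1.82 ± 0.09, 3.54-fold lower, adjusted p = 1.86e-18). Npy2r, a neuropeptide Y receptor, had 52.9 and 58.8 and then 16.9 and 15.0 (-1.81 ± 0.10, adjusted p = 6.43e-17), and Chodl had 78.3 and 89.5 and then 25.2 and 21.9 (-1.83 ± 0.10, adjusted p = 2.65e-17). In these 3 genes the lowest E12.5 library was over 3-fold above the highest E14 library. Dgkb, a diacylglycerol kinase (-1.67), Kcnab1, a potassium channel subunit (-1.60), Htr1f, a serotonin receptor (-1.61), Npffr2, a neuropeptide FF receptor (-1.60), Clvs2, a clathrin-linked lipid-binding protein (-1.69), Gprin3 (-1.63), Lama2, a laminin chain (-1.59), and Col8a1, a collagen chain (-1.57), followed. In E14 GFP+ RNA, Tacr1 was at 0.0358 and 0.140 FPKM, Npy2r at 0.0113 and 0.0491, and Chodl at 3.81 and 0.817. Mroh2a had the largest fall among the regions named by the rule (23.6 and 28.7 to 8.16 and 5.61 CPM, -1.93), with near-identical copies that make its value uncertain.

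The later course of these losses differed. Npy2r was at 12.3 to 20.6 CPM and Chodl at 16.8 to 34.2 from E16.5 to P0, near their E14 levels. Tacr1 was at 22.2 to 23.0 CPM at E16.5 and E18 and at 35.7 and 43.0 at P0. The later values are given as levels, with no test.

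Some markers of other cells that a retinal dissection could carry differed between the stages, and their part in the results was not tested. Of 15 lens genes none was higher and 6 were lower (median -0.41). Cryaa, the lens alpha-crystallin, had 11.7 and 12.9 CPM and then 4.39 and 3.38 (-1.66 ± 0.18, adjusted p = 5.92e-10), and Foxe3, the lens epithelium factor, 32.9 and 29.8 and then 16.2 and 15.7 (-0.98). The exon counts of Foxe3 did not pass (0.16, adjusted p = 0.314). In exon counts 1 lens gene was higher and 4 were lower (median -0.18). The summed lens level over regions was 353 and 348 CPM at E12.5 and 304 and 311 at E14. Without the abundance offset 12 lens genes were lower and 2 higher, with a median of -1.06. In E14 RNA Cryaa was listed at 0 in replicate 1 and at 61.2 FPKM in replicate 2, so the RNA replicates differ in lens transcripts. They differ in retinal genes too: Hes5 was at 276 and 39.4 FPKM, Crx at 27.4 and 2.24, Gli1 at 72.3 and 0.357 and Sfrp2 at 238 and 1459, and the medians of the late progenitor list were 24.4 and 4.15. RNA values are therefore given one by one. A list of 19 crystallin genes made after these values were seen had 7 lower and none higher (median -0.18). Without the offset 17 of them were lower (median -1.03), and with library size alone 18.

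Of 11 pigment epithelium genes 5 were lower and none higher (median -0.24, summed level 217 and 230 against 205 and 197 CPM), led by Ttr (-0.83), Tyrp1 (-0.67) and Rpe65 (-0.59). Without the offset 8 of these were lower and 2 higher, with a median of -0.85. Of 13 endothelial genes 6 were lower and 1 higher (median -0.20, summed 307 and 302 against 267 and 258 CPM), with Cdh5 at -0.89 and Tie1 at 0.90. Of 15 mesenchymal genes 7 were lower and 2 higher (median -0.17, summed 646 and 649.6 against 613 and 598 CPM), with the collagen genes Col3a1 (-0.82) and Col1a2 (-0.53) and Pdgfrb (-0.67) among the losses and Twist2 (0.54) among the gains. Without the offset 5 mesenchymal genes were higher and 5 lower, with a median of -0.02, so the lean to losses depends on the scaling. Erythroid and microglial genes each had 1 of 12 higher and 2 lower, below the 18.1% and 18.7% of all genes. Their medians were -0.03 and 0.20. These medians became -0.61 and -0.66 without the offset, with 9 and 8 lower, so their direction depends on the scaling. All 12 microglial genes were below 1 FPKM in both RNA libraries. Of 15 bipolar and Müller glia genes 2 were higher and 3 lower, and of 10 astrocyte and oligodendrocyte genes 1 changed, the water channel gene Aqp4, which is in both lists, falling from 25.3 and 26.5 to 12.9 and 10.5 CPM (-1.15). Without the offset the bipolar and Müller glia list had 4 higher and 7 lower, and the astrocyte and oligodendrocyte list 3 and 5. The RPC label could be set against RNA at E14 only, and in other libraries than the ATAC ones. There the 14 core progenitor genes had medians of 188 and 137 FPKM, and none was below 1 FPKM in both replicates. Neuronal genes were present in the same RNA at lower levels, with medians of 6.11 and 2.09 FPKM over 20 pan-neuronal genes, of which 3 were below 1 in both replicates, and of 6.71 and 2.998 over 18 ganglion cell genes. The label was not checked against RNA at E12.5.

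Exon counts gave a second view, in which each gene's exons, not its start, collect the reads. Of 21056 genes 4412 were higher (21%) and 4637 lower (22%). Among 19252 genes in both fits, 2011 were higher in both and 2416 lower in both, while 91 were higher by region and lower by exons and 98 the reverse. Of genes with a higher region 57.85% had higher exon counts, and of genes with a lower region 63.0% had lower ones. Exons overlap regions, so the 2 views share reads near starts. Among the 23 developmental genes 17 had higher exon counts and none lower. Ccnd1 had 74.0 and 77.1 CPM in its exons at E12.5 and 113 and 128 at E14 (0.68 ± 0.09, adjusted p = 6.66e-09), a larger change than in its region. Fgf15 exons rose by 0.69, Sox2 by 0.64 and Hes1 by 0.58, and those of Sox9, a factor of progenitors and glia, by 0.30 where its region did not pass (0.13, adjusted p = 0.146). The balance again moved with the scaling, from 4190 higher and 8661 lower with library size alone to 10505 and 3663 with factors from the central 400 bp and 14501 and 970 with factors from the outermost windows. The median over all genes was -0.20, 0.27 and 0.85 in these.

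The highest exon gains mixed Hox and histone genes with genes that are broadly transcribed. Mira, a noncoding RNA of the Hoxa cluster, was first (0.882 and 1.36 to 4.63 and 6.49 CPM, 2.31 ± 0.35), and Hoxb2 (1.76) and Hoxa2 (1.69) were among the 12 named. Mira was first with the abundance offset only: without it the change was 1.43, below those of Lyrm4 (1.83), Timm23 (1.62) and Hoxb2 (1.52). The mitochondrial genes Lyrm4 (9.80 and 7.39 to 35.6 and 38.2 CPM, 2.08 ± 0.16, adjusted p = 2.13e-16) and Timm23 (11.6 and 10.8 to 36.6 and 35.3 CPM, 1.68 ± 0.15) and the RNA-processing genes Fcf1 (2.07) and Ncbp2 (1.61) were also there. Timm23 was at 42.6 and 53.8 FPKM in E14 RNA. At later stages Lyrm4 was at 12.7 to 16.4 CPM, Timm23 at 19.5 to 34.5 and Ncbp2 at 15.8 to 26.5, all between their E12.5 and E14 levels. Fcf1 was at 3.56 to 10.4 CPM, and its lowest later library lay below the higher of the E12.5 values (3.39 and 3.76). Pfdn4 (1.62) and Adam1a (1.67) had fewer than 7 CPM in every library of the 4, and lost their call with library size alone (adjusted p = 0.163 and 0.129). The largest losses were Heatr7b1, an older symbol of Mroh2a (173 and 227 to 36.4 and 29.2 CPM, -2.60), Cryaa (12.8 and 11.4 to 3.97 and 1.86 CPM, -2.07 ± 0.26), Sfi1 (-2.05) and Rnf133 (-1.95), with Npy2r (-1.89) and Chodl (-1.85) next. Sfi1 and Mroh2a have near-identical copies and are uncertain. Cryab, the second alpha-crystallin, fell by 1.75.

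Single 200 bp windows placed these changes within the regions. Of 162889 windows tested, 22813 were higher (14%) and 25470 lower (15.6%). Gains and losses were spread differently around the start. Between 200 and 600 bp from it losses prevailed, with 20.9% lower against 8.78% higher at 200 to 400 bp and 17.0% against 8.48% at 400 to 600 bp. Beyond 1 kb gains prevailed, with 16.5% higher against 11.5% lower at 1 to 2 kb and 19.0% against 10.2% at 4 to 5 kb. Without the abundance offset this excess was smaller, with 15.8% against 14.1% at 1 to 2 kb and 18.0% against 13.2% at 4 to 5 kb. Losses at 200 to 400 bp were then 18.7% against 13.2% higher. Within 200 bp of the start the shares were 18.9% higher and 19.3% lower, and without the abundance offset 28.0% and 15.8%. The median change in these classes lay between -0.06 and 0.09, against a standard deviation of 0.41 to 0.49 between windows. Counts of calls fell to 12995 higher without E12.5 replicate 1, to 13549 higher and 16773 lower without E12.5 replicate 2, and to 12968 and 15907 without E14 replicate 2.

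**Figure D5:**
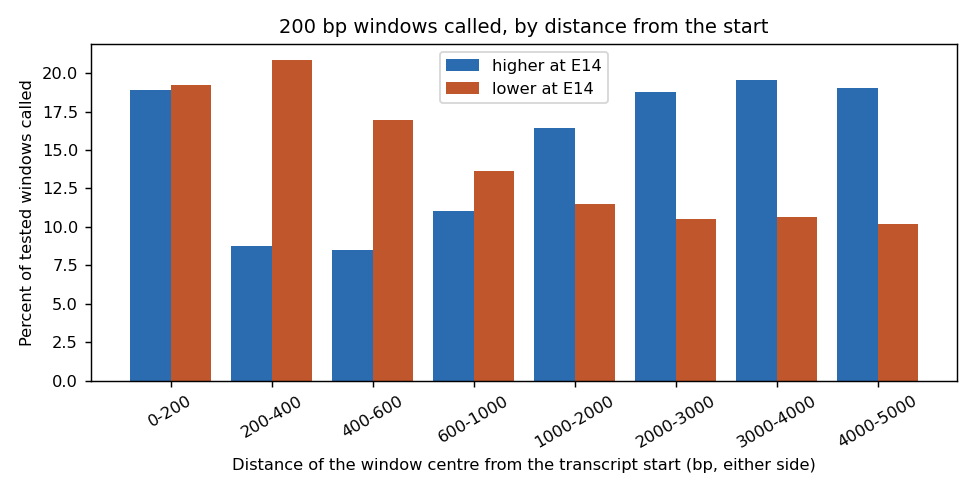
Percent of tested 200 bp windows called higher (blue) or lower (orange) at E14 (y axis), by distance of the window centre from the transcript start on either side (x axis, bp). Losses prevail from 200 to 600 bp, at 20.9% and 17.0%, and gains from 1 kb outward, at 16.5% to 19.5%. These shares are with the abundance offset, and without it the excess of gains at 1 to 2 kb was smaller (15.8% against 14.1% lower).

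The share of a region's windows that gained differed between progenitor genes. Of the 50 windows in a region, those with enough counts were tested. Otx2 had 19 of 22 tested windows higher, Fgf15 15 of 19, Sox2 15 of 24 and Six6 14 of 24, with none lower in any of these. Rax had 11 of 21 higher and 1 lower. Fewer of the tested windows were higher in Hes1 (14 of 39), Six3 (11 of 35, with 1 lower), Lhx2 (10 of 32), Pax6 (9 of 35) and Sox9 (4 of 22), and Hes5 had 4 of 30 higher and 3 lower. At Sox2 the window with the smallest p lay 4100 bp after the start (85 and 47 counts, then 405 and 473, 1.22 ± 0.16), while the window just before the start rose by 0.55. At Foxn4 a window 1700 bp after the start held 44 and 39 and then 233 and 320 counts (1.38 ± 0.19, adjusted p = 3.71e-09), although the region changed by 0.23. Neurog2 rose most clearly 300 bp before its start (0.84), Onecut1 1300 bp before (1.08) and Nfib 1300 bp before (0.77). Onecut1 therefore held called windows, 7 of 21, in a region that did not pass. Ptf1a had 2 called windows, both more than 1 kb from the start.

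In the regions with the largest losses, most windows with enough counts to be tested lay within 1 kb of the start. All 12 tested windows of Tacr1 were lower, all 10 of Dgkb and of Kcnab1, all 8 of Chodl and of Col8a1 and all 7 of Npy2r. These regions were named for the fall of their summed counts, so the share of lower windows adds no support to the losses. At Npy2r the window just before the start held 361 and 254 counts at E12.5 and 135 and 160 at E14, or 10.3 and 9.34 and then 1.99 and 1.89 CPM of the region total (-2.45 ± 0.14, adjusted p = 5.37e-29). The windows just before the starts of Tacr1 (4.25 and 3.71 to 1.11 and 1.30 CPM, -1.80) and Chodl (11.3 and 12.5 to 5.49 and 4.53, -1.47) fell too, and the strongest Chodl window lay 300 bp after the start (-2.26). Hoxa2 had 1 window with enough counts, 500 bp after the start (22 and 25 counts, then 129 and 144, 1.30). This window reached a mean of 1 CPM through the E14 libraries (0.627 and 0.919 CPM at E12.5, 1.90 and 1.70 at E14). All 26 tested windows of Hist1h2bb were higher, and this region too was named for the change of its summed counts.

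The largest changes of single windows had few counts in 1 of the stages. A window 300 bp before the Bzw1 start (chr1:58449580-58449779, mm9), a translation regulator gene, held 362 and 253 counts at E12.5 and 0 and 0 at E14, and 0 in all 6 later libraries. Bzw1 was at 166 and 178 FPKM in E14 RNA. Whether read mapping at this window differed between libraries was not tested, so its value is uncertain. A window 2500 bp after the Mettl24 start held 8 and 7 and then 145 and 158 counts (3.90, and 2.93 without the abundance offset). Windows at the histone genes Hist1h2br (7 and 8 to 122 and 159 counts, 2.96), Hist1h2bm (2.43) and Hist1h2ap (2.42), at Abcd4 (2.43) and at Txnl4a (3.28) were also among the 8 highest. Among the 8 lowest were start windows of Scn7a, a sodium channel gene (159 and 140 to 43 and 37 counts, -3.07), and Rab27b, a vesicle GTPase gene (-2.88), and windows 500 bp before Asb4 (-3.51) and before Mir184, a microRNA gene expressed in lens and cornea (132 and 75 to 31 and 35 counts, -3.03). Gm10406, 2610042L04Rik and LOC100861615, at -4.74, -3.02 and -2.91, are predicted genes on chromosome 14, and near-identical copies make these values uncertain.

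RNA of E14 GFP+ cells, a separate measurement, was set beside the calls. With 1 region per gene, genes whose region was higher had median levels of 12.4 and 13.5 FPKM in the 2 replicates, and 71.8% and 72.5% of them were at 1 FPKM or above. Genes not called had medians of 0.713 and 0.733 FPKM, and genes with a lower region 1.29 and 1.08. The order was different for large changes of regions. Genes higher beyond 1.5-fold had medians of 0.0548 and 0.0568 FPKM and genes lower beyond 1.5-fold 0.0560 and 0.0593, and 30.4% and 25.1% of them reached 1 FPKM in replicate 1. Sox2 (173 and 163 FPKM) and Fgf15 (1093 and 256) were not in this class, as their regions rose by 1.47-fold each. In exon counts, genes higher beyond 1.5-fold had medians of 3.65 and 3.93 FPKM, and genes lower beyond 1.5-fold 0.118 and 0.123. Of these, 59.0% and 32.3% reached 1 FPKM in replicate 1. RNA at E12.5 was not analysed here, so no change of RNA could be set beside the change of chromatin.

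Base composition moved with the calls. In the fifth of regions with the lowest G+C content (of the gene's GENCODE M21 transcripts), 11.1% were higher and 26.1% lower with a median change of -0.16, and in the fifth with the highest, 18.4% were higher and 12.4% lower with a median of 0.03. With a further offset for G+C content, chosen after seeing the data, 5080 regions were higher and 5403 lower. Of 24080 genes 17981 had a promoter in the RefSeq table (74.7%), so a check by promoter composition is void and only the share of promoters with each motif is given. The GC box GGGCGG occurred in 43.3% of all tested promoters, in 47.4% of those with a higher and 45.5% of those with a lower region, and in 23.3% and 27.2% of those beyond 1.5-fold. TATAAA occurred in 11.2% of all, 8.66% of higher and 10.2% of lower promoters, and in 16.4% and 15.7% beyond 1.5-fold. For all, higher and lower promoters the shares were 35.1%, 34.3% and 35.4% for CCAAT, 12.7%, 11.0% and 14.4% for CAGCTG, and 4.22%, 3.73% and 3.68% for TAATTA.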

How the data were processed

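The authors deposited whole-number counts per 200 bp window around transcript starts and counts per gene over exons, per the file headers and values, for 13 ATAC libraries of GFP+ cells. Coordinates matched mm9: the last chromosome 1 region ended at 197007908, beyond the last GRCm38 feature at 195323493. The submitters' processing notes name Bowtie2, HISAT2, Picard 2.10.7, SAMtools 1.5, featureCounts 1.5.3, bedtools 2.26.0, mm9 and mm10, with no role or order, and an aligner for ATAC is not given in the sources used here. The deposited RNA values are taken as FPKM from their size. This unit is inferred, and they were used only as E14 levels.

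From these counts, runs of 50 windows were summed to 28488 regions of 10 kb. For each gene the start with the highest average count gave the 1 region kept. E14 was set against E12.5 with edgeR 4.0.16 (glmQLFit and glmQLFTest, R 4.3.3) over 10 libraries of 5 stages, with TMM factors and a loess offset (span 0.3) per library on mean log count, 5 residual degrees of freedom and Benjamini-Hochberg adjustment at 0.05. E10 and P2 entered only as an alternative. Windows needed a mean of 1 CPM over the 4 libraries. SE was the log2 change over the root of the F statistic. The fit was tested on simulated data. DESeq2 1.42.0, other scalings, filters, region widths and left-out libraries were alternatives.

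The members, the genes of retinal development and the lists were chosen with earlier results of these data known. Also named were the 12 highest and 12 lowest called regions (at least 20 CPM) and exon counts (at least 5 CPM), the 8 highest and lowest windows and up to 4 members per list by smallest p. The rankings of regions and exon counts left out predicted genes, clones and accession names. They also left out microRNA, snoRNA and ribosomal pseudogene names. A few genes named by these rules are not reported here, but lists are counted with all their members. Further list members that complete a count, the histone, Hox and crystallin lists and the 6 promoters were chosen after values were seen. Promoters came from RefSeq (GRCm38.p6). Figures were drawn with matplotlib 3.10.9. Replicate numbers of E12.5 and E14 did not deviate together (correlation -0.23 across regions), so they were not used as pairs.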

Additional observations from a re-analysis of the deposited data

How the results depend on the processing

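The counts of calls depended on the scaling and on single libraries. Without the abundance offset 10017 regions were higher and 10264 lower, and 6801 genes by exon counts were higher. With library size alone 12291 regions and 8661 genes were lower. With factors from the central 400 bp 12124 regions were lower and 10505 genes higher, and with factors from the outermost windows 15535 regions and 14501 genes were higher and 970 genes lower. DESeq2 called 10224 regions higher and 9916 lower. A minimum change of 1.5-fold left 144 and 472 regions and 400 and 583 genes. Leaving out each library in turn gave 2825 to 3895 higher and 3306 to 4343 lower regions, 2999 to 4206 and 3246 to 4454 genes, and 12968 to 17455 and 15907 to 20802 windows. With a wider centre and edge (central 1 kb over the 10 outermost windows), mean start enrichment was 13.5 at E12.5 and 17.05 at E14, against 19.2 and 25.15. Nfia changed by 0.03 without the offset, 0.47 with factors from the outermost windows and 0.04 in DESeq2. Ptf1a changed by 0.62 with factors from the outermost windows and 0.19 in DESeq2, Pou4f2 by 0.53 with those factors, and Hes5 by -0.21 without the central 2 kb. In the central 2 kb alone, Ptf1a (-0.32) and Pou4f2 (-0.34) were called lower. The cause was not tested. Of 844 values for single regions under alternatives, 762 kept direction and call, 29 gained a call, 46 lost it and 7 reversed, and of 383 for exon counts 378 kept them and 5 lost the call.

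With the replicate number as a block 4732 regions were higher and 5004 lower, 4299 and 4503 genes, and 22234 and 24943 windows. With the numbers of the E14 libraries crossed, an alternative chosen after seeing the data, 5045 and 5301 regions and 4500 and 4759 genes were called. With the further offset for G+C content, also chosen after seeing the data, 4613 genes were higher and 4463 lower. Beside the depth limit set by 2 libraries per stage, windows below 1 CPM were not tested, so a change there was not detectable.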
